A study of Drosophila melanogaster with 10 samples.

Results

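The vacuolar proton pump (V-ATPase) acidifies lysosomes, endosomes and synaptic vesicles, and 31 of its subunit genes are described here of the 11982 genes that had a probe set of their own on the arrays. The members are all genes whose only symbol in the platform annotation starts with Vha, and a gene with more than 1 probe set was read from its brightest. That applied to 1 member, Vha16-1, which had 2. Vha68-1 and Vha68-2, which encode the catalytic subunit A, were not analysed here. Expression was measured in fluorescence-sorted cells from cultured embryos of Drosophila melanogaster, on Affymetrix arrays, with 5 samples labelled Cha and 5 labelled Gad. The Cha strain carried 7.4 kb Cha-Gal:UAS-GFP, in which regulatory DNA of the choline acetyltransferase gene drives green fluorescent protein through the Gal and UAS relay. The Gad strain carried 2.1 kb Gad1(s)-RFP, a red fluorescent reporter of the glutamate decarboxylase gene without that relay. Both groups came from dissociated early gastrulae of parents aged 2 weeks and were grown at 25 C. The sample descriptions give 5 to 7 days in culture, whereas the growth protocol gives up to 8. A fragment of regulatory DNA need not mark every cell of a transmitter type, and no label states that each of the 5 samples of a group had its own culture.

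The pump has a soluble sector, V1, which hydrolyses ATP, and a membrane sector, V0, which carries protons. ATP hydrolysis in the V1 head turns a central stalk that is fixed to a ring of V0 proteolipids, and each turn moves protons past subunit a. In neurons the proton gradient drives the uptake of acetylcholine, GABA and monoamines into synaptic vesicles. In flies several subunits are encoded by more than 1 gene. One copy is usually expressed broadly, and further copies are known from few tissues, often the testis or gut. Vha100-1 encodes the subunit a that is known from fly neurons. The 31 genes were therefore sorted from general knowledge into 13 ubiquitous genes, the neuronal Vha100-1 and 17 other copies or accessory genes. In the gene order of the Release 6 assembly, Vha100-4 lies directly beside Vha100-2, and 1 gene separates VhaPPA1-2 from VhaPPA1-1.

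All values are log2 RMA values, and differences are Cha minus Gad. A gene was called dim unless 5 or more of the arrays gave it a value above their own percentile 40. Lists of marker genes described the sorted cells. Of the 13 neuron markers 11 were measured and 0 were dim. Of these 11, 9 passed in the direction of Cha and 0 in that of Gad. The mean of the list ran from 10.24 to 10.94 on the Cha arrays, against 9.21 to 10.20 on the Gad arrays. Syn (11.51 ± 0.21 in Cha, 9.77 ± 0.42 in Gad, SD, n = 5 each) and Csp, both of synaptic vesicles, futsch, of the neuronal cytoskeleton, and Sap47, of the synapse, were among the 9. For comparison, 8.21% of all genes were called higher in Cha and 10.2% higher in Gad. Of 10 glia markers 0 were higher in Cha and 2 in Gad (repo and loco), and their mean ran from 7.71 to 8.13 in Cha and from 8.18 to 8.44 in Gad, with wrapper dim on all arrays. Of 7 muscle markers 5 were higher in Gad (Mlc2, up, Act87E and Prm among them; mean 6.14 to 7.35 in Cha, 7.15 to 8.01 in Gad), and so were 4 of 5 markers of dividing cells (CycB, CycB3, cid and ncd; 6.76 to 7.61 in Cha, 8.05 to 8.29 in Gad). Of 5 fat body markers, Lsp2 and Obp99a were higher in Gad (6.61 to 7.32 in Cha, 7.95 to 9.74 in Gad). Lsp2 ran from 4.67 to 12.32 over the Gad arrays, and its groups overlapped. Of 9 blood cell markers, PPO1 and PPO2 were higher in Cha and srp in Gad (7.07 to 7.88 in Cha, 6.80 to 7.37 in Gad). Of 7 markers of gut and renal epithelia rich in the pump, salt was higher in Gad, with a list mean of 6.07 to 6.73 in Cha and 6.21 to 6.44 in Gad, and iotaTry dim on all arrays. The median difference of that list was -0.01, and at an unadjusted limma p under 0.05, 1 marker was higher in Cha and 1 in Gad. The reporter genes did not pass: ChAT differed by 0.68 and Gad1 by 0.12 (limma adjusted p = 0.067 and 0.626), and VAChT and VGAT by 0.22 and 0.49. Cha and Gad therefore stand for the array labels throughout. The gap between 3′ and 5′ control probe sets of GAPDH, a sign of RNA integrity, was 2.91 in Cha and 3.41 in Gad (exact permutation p = 0.0317, adjusted over 3 controls 0.0952). The actin gap was 5.47 in Cha and 5.48 in Gad (exact permutation p = 0.984). That of eIF4a was larger in Cha, at 5.25 against 4.98 (exact permutation p = 0.214). The part of cell composition and of RNA quality in the results below was not tested.

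Of the 31 pump genes, the limma fit over all genes called 4 higher in Cha and 1 higher in Gad (Benjamini-Hochberg adjusted p under 0.05). That is 16.1% of the members, while 18.5% of all genes were called. By direction, 12.9% of the members were higher in Cha and 3.23% in Gad, against 8.21% and 10.2% of all genes. As a whole, the family was thus called about as often as other genes. The median difference was 0.09 over the members and 0.04 over all genes. The median was 0.30 for the 13 ubiquitous genes and -0.05 for the 17 others, of which 9 were dim; the classes were not tested against each other. In bulk samples such as these, a lower value can come from fewer cells of a type or from less RNA per cell, which cannot be told apart. All calls but that of VhaPPA1-1 depended on single arrays. With Cha1 to Gad5 for the replicates, 1 or 2 members were higher in Cha when Cha2, Cha3, Cha5, Gad1, Gad2, Gad3 or Gad5 was left out. Without Cha1, Cha2, Cha5, Gad2, Gad3, Gad4 or Gad5, 0 were higher in Gad, and without Gad1, 2 were. Without both Cha replicate 2 and Gad replicate 5, whose descriptions share a letter code, limma called 0 members, with 5 higher in Cha and 1 in Gad at an unadjusted p under 0.05. A fit with the replicate number as a block also called 0, with 6 and 2 at that unadjusted p. The share of all genes at that unadjusted p was not counted, so unadjusted counts of members or lists have no background beside them.

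**Figure D1:**
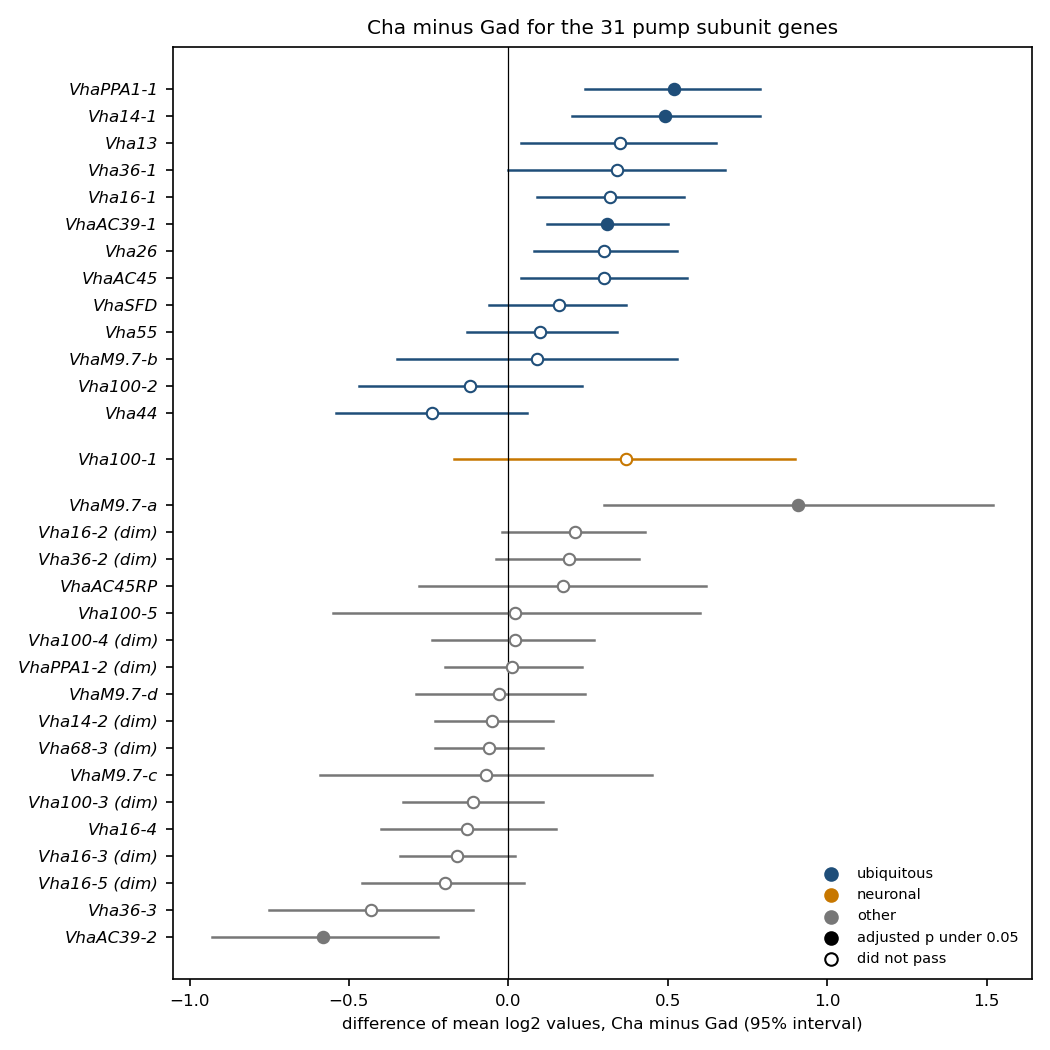
Cha minus Gad difference in log2 units (x axis) for each of the 31 pump genes (y axis), with 95% intervals from limma over 5 arrays a group. Colours give the class, filled points passed an adjusted p of 0.05, and 11 of the 13 ubiquitous genes lie to the right of 0 while the dim copies lie near it.

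The ubiquitous genes had mostly higher means in Cha, by small amounts. Of 13, 11 had the higher mean in Cha (84.6%), against 57% of all genes and 55.5% of the 1479 genes at least as bright as the dimmest ubiquitous member. Only 3 of the 13 passed the test, all higher in Cha (23.1%, against 8.21% of all genes and 13.4% of those equally bright, of which 28.5% were called in either direction). The 3 were VhaPPA1-1, Vha14-1 and VhaAC39-1. None was higher in Gad, where 15.1% of equally bright genes were called. At an unadjusted limma p under 0.05, 7 were higher in Cha and 0 in Gad. The share of equally bright genes at that p was not counted. The count of 3 was 1 when Cha3, Gad1, Gad2, Gad3 or Gad5 was left out, and 0 without both Cha2 and Gad5. A block on the replicate number also gave 0. The median difference of 0.30 corresponds to 1.24-fold, while that of equally bright genes was 0.05. It was 0.30 for the 7 genes of V1 and 0.30 for the 6 of V0 and its accessory protein. The neuron markers had a median of 0.83 and no overlap of their mean between groups, and the part of this in the pump genes was not tested.

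VhaPPA1-1 encodes c″, a proteolipid of the rotating ring. It had 12.39, 12.83, 12.64, 12.23 and 12.72 in Cha replicates 1 to 5, against 12.10, 11.97, 11.99, 12.24 and 11.93 in Gad replicates 1 to 5. The groups touched only where Gad replicate 4 reached the level of Cha replicate 4. The difference was 0.52 (SE 0.13, 95% interval 0.24 to 0.79; 1.43-fold), with an adjusted p of 0.0171 in limma. It was the 1 member whose call held in all 10 fits that left out 1 array. The call ended without both arrays of the shared letter code (limma adjusted p = 0.0907) and with a block on the replicate number (0.0836).

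VhaAC39-1 encodes subunit d, which joins the central stalk to the ring. Its values were 11.94, 12.10, 12.09, 12.14 and 12.26 in Cha, against 11.85, 11.73, 11.67, 11.90 and 11.84 in Gad. All 5 Cha arrays lay above all 5 Gad arrays, which was so for 5.93% of all genes and 8.86% of equally bright ones. The difference was small, 0.31 (SE 0.09, interval 0.12 to 0.50; 1.24-fold; limma adjusted p = 0.0322). The call ended in 7 of the 10 fits without 1 array (those without Cha2, Cha3, Cha5, Gad1, Gad2, Gad3 or Gad5; adjusted p = 0.053 to 0.0881), with a trended prior (0.0559) and without both arrays of the shared letter code (0.103). A block on the replicate number ended the call too (limma adjusted p = 0.105).

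Vha14-1 encodes subunit F of the central stalk. It had 11.29, 11.47, 11.88, 11.82 and 11.55 in Cha and 11.06, 11.10, 10.90, 11.40 and 11.09 in Gad. The groups overlapped through Gad replicate 4, which lay above Cha replicate 1. The difference of 0.49 (SE 0.13, interval 0.20 to 0.79; 1.41-fold) passed with a limma adjusted p of 0.0272. It was lost when Cha replicate 3 or any of Gad replicates 1, 2, 3 and 5 was left out (adjusted p = 0.0574 to 0.074), and without both arrays of the shared letter code (0.0827). A block on the replicate number ended the call too (limma adjusted p = 0.0627).

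Vha16-1 encodes c, the main proteolipid of the ring. It stood at 13.39, 13.60, 13.27, 13.34 and 13.54 in Cha and at 13.11, 12.89, 13.07, 13.32 and 13.15 in Gad. Only Gad replicate 4 reached into the Cha range. The difference of 0.32 (SE 0.10, interval 0.09 to 0.55) narrowly missed the threshold (limma adjusted p = 0.053). Its second probe set ran the same way, at 11.69 ± 0.23 in Cha and 11.24 ± 0.38 in Gad (SD, n = 5 each), a difference of 0.45. The groups overlapped on that probe set, with Gad replicate 1 at 11.70 and the Cha arrays at 11.40 to 12.05. It was not tested on its own.

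The remaining V1 genes gave intervals that mostly reached 0. Vha26 encodes E and Vha13 encodes G, which together form the peripheral stalks that hold the head still. Vha26 differed by 0.30 (interval 0.08 to 0.53, limma adjusted p = 0.0649) and Vha13 by 0.35 (0.04 to 0.65, adjusted p = 0.106). Vha36-1, the D subunit of the central shaft, differed by 0.34 (adjusted p = 0.162). Vha55, subunit B of the head, had 11.61 ± 0.13 in Cha and 11.51 ± 0.17 in Gad (SD, n = 5 each), a difference of 0.10 with an interval of -0.13 to 0.34. VhaSFD encodes H, which holds back the ATPase of free V1, and differed by 0.16 (-0.06 to 0.37). Vha44, the C subunit that is released when V1 leaves the membrane, was 1 of the 2 ubiquitous genes with the lower mean in Cha. It had 10.03, 10.15, 9.96, 9.86 and 10.51 in Cha and 10.34, 10.12, 10.20, 10.57 and 10.48 in Gad, and its difference was -0.24 (-0.54 to 0.06, adjusted p = 0.267).

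Of the accessory proteins, VhaAC45 (Ac45, which binds V0) had 12.44 ± 0.24 in Cha and 12.14 ± 0.08 in Gad (SD, n = 5 each). Its difference of 0.30 had an interval of 0.04 to 0.56 and did not pass the adjustment (limma adjusted p = 0.103). VhaM9.7-b, a small membrane subunit of type e, differed by 0.09 (-0.35 to 0.53). ATP6AP2, the accessory subunit once called VhaM8.9, falls outside the naming rule; it differed by 0.12 (-0.13 to 0.36, adjusted p = 0.516).

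**Figure D2:**
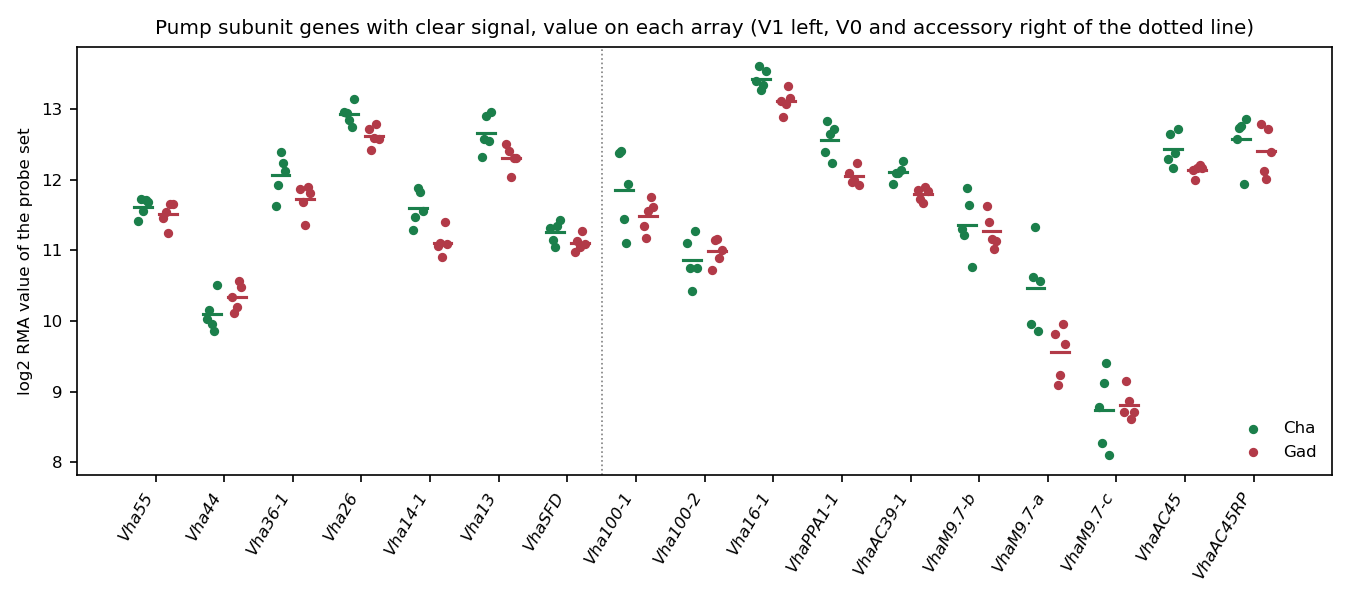
log2 RMA value on each array (points, y axis) for 17 pump genes with clear signal (x axis), V1 left and V0 with accessory genes right of the dotted line, Cha in green left of Gad in red, short lines for group means. Most green means lie slightly above the red ones, VhaM9.7-a by more (0.91), and Vha44, Vha100-2 and VhaM9.7-c are exceptions. Heights of different genes cannot be compared, because each probe set has its own response.

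Vha100-1, the neuronal subunit a, varied more within Cha than between the groups. It had 12.37, 12.41, 11.44, 11.11 and 11.94 in Cha, against 11.35, 11.18, 11.55, 11.76 and 11.61 in Gad. Cha replicates 1, 2 and 5 lay above every Gad array, whereas Cha replicate 4 lay below every Gad array. The difference of 0.37 had a wide interval, -0.17 to 0.90, and did not pass (limma adjusted p = 0.339). The SD was 0.57 in Cha and 0.23 in Gad. Leaving out 1 array gave differences from 0.23 to 0.55. The lowest was without Cha replicate 2 (limma adjusted p = 0.574), the highest without Cha replicate 4 (0.08).

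The ubiquitous counterpart, Vha100-2, had 11.11, 10.75, 10.43, 11.27 and 10.75 in Cha and 10.72, 11.15, 11.16, 10.89 and 11.0 in Gad. The groups overlapped throughout (difference -0.12, interval -0.47 to 0.23, limma adjusted p = 0.653). Whether the 2 genes for subunit a shifted relative to each other was tested by the difference between both probe sets within each array. This within-array difference was 0.99 ± 0.69 in Cha and 0.51 ± 0.32 in Gad (SD, n = 5 each). The shift of 0.49 in favour of Vha100-1 did not pass (exact 2-sided permutation p = 0.19, adjusted over 9 pairs of paralogues 0.343). Cha replicate 4 had the lowest within-array difference of the 10, and without it the shift was 0.77. Without Cha replicate 2 the shift was 0.32, and these were the ends of the range over fits that left out 1 array. The probe sets of both genes are of a type that several transcripts can share, as are those of Vha26, Vha44, Vha55 and VhaAC45. The second probe set of Vha16-1 is of that type too.

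The further copies of subunit a showed no difference beyond the spread between arrays. Vha100-5 had 6.41 ± 0.60 in Cha and 6.38 ± 0.27 in Gad (SD, n = 5 each), a difference of 0.02 with an interval of -0.55 to 0.60. Its highest value, 7.42, was on Cha replicate 4, the array with the lowest Vha100-1. Vha100-4 exceeded the dim level on 1 Cha array and 3 Gad arrays, and Vha100-3 on none.

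Subunit e showed the largest difference of the family, in a copy that is not its ubiquitous one. VhaM9.7-a had 9.96, 10.62, 11.33, 9.86 and 10.57 in Cha, against 9.81, 9.10, 9.23, 9.96 and 9.68 in Gad. Cha replicates 2, 3 and 5 stood clear of all Gad arrays, and Cha replicates 1 and 4 did not. The difference was 0.91 (SE 0.28, interval 0.30 to 1.52; 1.88-fold), with a limma adjusted p of 0.0421. The call ended in 7 of the 10 fits without 1 array (the same 7 arrays as for VhaAC39-1; adjusted p = 0.0598 to 0.105), with cyclic loess normalization (0.0542) and without both arrays of the shared letter code (0.134). A block on the replicate number ended the call too (limma adjusted p = 0.132). Without Cha replicate 3 the difference was 0.69.

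The other copies for subunit e did not pass. VhaM9.7-c had 8.74 ± 0.55 in Cha and 8.81 ± 0.21 in Gad (SD, n = 5 each; difference -0.07), and VhaM9.7-d, barely above the dim level, differed by -0.03. Within arrays, the shift of VhaM9.7-a relative to VhaM9.7-b was 0.82 in favour of Cha (exact 2-sided permutation p = 0.0556, adjusted over 9 pairs 0.161). For VhaM9.7-c relative to VhaM9.7-b it was -0.16 (exact p = 0.349, adjusted 0.524).

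Subunit d was the 1 subunit with called copies in opposite directions. VhaAC39-2, the second gene for d, had 4.86, 4.97, 5.54, 4.79 and 4.56 in Cha, against 5.38, 5.72, 5.42, 5.59 and 5.49 in Gad. All values lay close to the dim level of about 4.75 to 4.84, above which 3 Cha and 5 Gad arrays stood, and RMA compresses folds at such levels. The difference was -0.58 (SE 0.16, interval -0.93 to -0.22), or 1.49-fold higher in Gad (limma adjusted p = 0.032). Of the 10 fits without 1 array, 8 ended the call (all but those without Cha replicate 3 or Gad replicate 1; adjusted p = 0.0508 to 0.0775), as did leaving out both arrays of the shared letter code (0.107). A block on the replicate number ended the call too (limma adjusted p = 0.0787). The within-array difference of VhaAC39-2 and VhaAC39-1 did not overlap between groups, running from -7.70 to -6.56 in Cha and from -6.46 to -6.01 in Gad. The shift was -0.89, with the smallest p that 5 against 5 arrays allow (exact 2-sided p = 0.00794), which became 0.0714 over the 9 pairs and did not pass. Because a single pair cannot reach an adjusted p under 0.0714, that outcome decides nothing about the shift. The shift is also made up of the differences of the 2 genes, already called in opposite directions. It therefore gives no separate support, and the share of other gene pairs without overlap was not counted.

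Vha36-3, a further gene for D, showed a like pattern at a like low level. It had 4.71, 4.82, 4.90, 5.21 and 4.93 in Cha and 4.84, 5.48, 5.42, 5.46 and 5.52 in Gad. Gad replicate 1 alone lay among the Cha values. Its difference, -0.43 (interval -0.75 to -0.11), missed the threshold (limma adjusted p = 0.0645), as it did in 8 of the 10 fits without 1 array. It passed with array weights (adjusted p = 0.0201), without Cha4 (adjusted p = 0.0323) and without Gad1 (adjusted p = 0.0112), which is the array nearest to the Cha values. Relative to Vha36-1 the shift was -0.77 (exact 2-sided permutation p = 0.0159, adjusted over 9 pairs 0.0714).

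**Figure D3:**
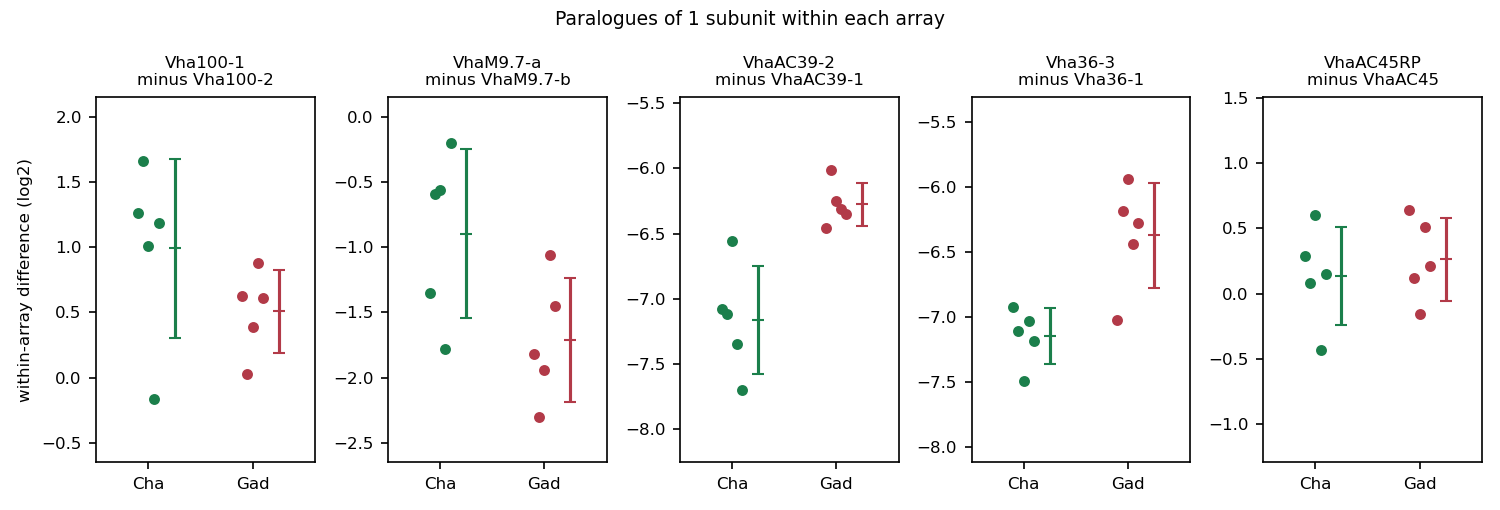
Within-array difference in log2 units (y axis) between paralogues of 1 subunit on each Cha (green) and Gad (red) array, with group mean and SD beside the points, 5 arrays each. The second d gene relative to the first separates the groups without overlap, while for subunit a and for the Ac45 pair the groups overlap; only differences between groups, not the heights, can be read.

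VhaAC45RP encodes an Ac45-related protein and was bright. It had 12.58, 12.73, 12.76, 11.94 and 12.86 in Cha and 12.78, 12.12, 12.01, 12.72 and 12.39 in Gad. The groups overlapped (difference 0.17, interval -0.28 to 0.62, limma adjusted p = 0.611), and its shift relative to VhaAC45 was -0.13 (exact 2-sided permutation p = 0.571, adjusted over 9 pairs 0.643). The lowest values were those of Cha replicate 4 and Gad replicates 2 and 3.

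The remaining copies were at the lower end of the arrays. Of the 17 other genes, 9 were dim, and 7 members exceeded the dim level on no array: Vha68-3 (subunit A), Vha36-2 (D), Vha14-2 (F), Vha100-3 (a), Vha16-2 and Vha16-3 (c) and VhaPPA1-2 (c″). The other 2 dim genes were Vha16-5 and Vha100-4. Of all genes, 25.4% were dim. The 9 differed by -0.20 to 0.21, and 0 passed or had an unadjusted p under 0.05 in limma. Vha16-3 had no overlap between groups (4.05 to 4.29 in Cha, 4.30 to 4.44 in Gad), as did 7.6% of all genes with Gad above, but at this level a difference of -0.16 cannot be read as one of expression. Vha16-4, above the dim level on 2 Cha and 4 Gad arrays, differed by -0.13, and its shift relative to Vha16-1 was -0.45 (exact 2-sided permutation p = 0.0714, adjusted over 9 pairs 0.161). The shifts of Vha100-5 relative to Vha100-2 (0.14) and of VhaM9.7-d relative to VhaM9.7-b (-0.12) had adjusted p = 0.643 each in the same exact test.

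Pump genes also varied between arrays of 1 group. Among the Gad arrays, replicate 4 had the highest value for 10 of the 13 ubiquitous genes, and it was highest for 25.2% of equally bright genes. Among the Cha arrays, replicate 5 was highest for 6 of the 13, and highest for 30.2% of equally bright genes. Replicate 4 of Gad also had the highest mean of the neuron markers in its group (10.20), and replicate 2 the lowest (9.21). In Cha, replicate 2 had the highest mean (10.94) and replicate 4 the lowest (10.24). Vha100-1 was highest on Cha replicate 2 and Gad replicate 4 and lowest on Cha replicate 4 and Gad replicate 2, the arrays with the highest and lowest neuron marker means. Vha16-1, Vha55 and VhaPPA1-1 were also highest on Cha replicate 2 and Gad replicate 4, which makes 4 of 31 members (12.9%), against 6.43% of all genes and 9.4% of equally bright ones. VhaM9.7-a was lowest on Cha replicate 4 and Gad replicate 2 too, with Vha26 and Vha44, whereas Vha100-5 and VhaM9.7-c were highest on them, with the dim Vha100-3. Of all genes, 8.62% were lowest on both arrays and 7.71% highest on both, so 4 and 3 of 31 members (12.9% and 9.68%) are not far from that background. For genes as bright as the ubiquitous members the shares were 14.1% and 5.48%, but the 3 members highest on both were less bright than those. The part of the neuron marker level in this was not tested.

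**Figure D4:**
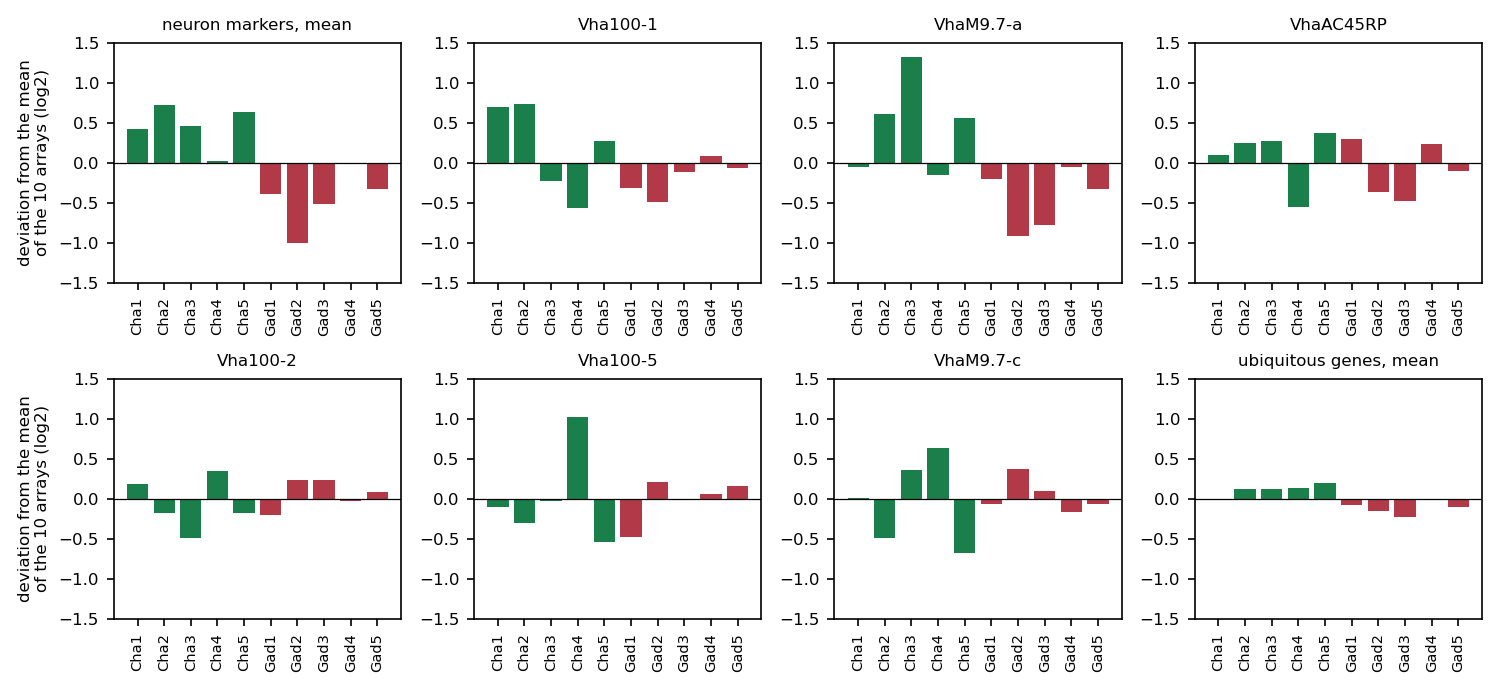
Deviation of each array from the mean of the 10 arrays in log2 units (bars, y axis) for the mean of 11 neuron markers, 6 single pump genes and the mean of the 13 ubiquitous genes, with Cha arrays (green) left of Gad arrays (red). Cha4 and Gad2, which are replicate 4 of Cha and replicate 2 of Gad, have the lowest bars of their groups for the neuron markers and Vha100-1 and the highest for Vha100-5.

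Part of the lysosomal genes were higher in Gad. Of 12 genes of lysosomal enzymes and membrane proteins, 6 passed with higher values in Gad and 0 in Cha, with a median difference of -0.42 (18.5% of all genes were called, 10.2% in that direction). At an unadjusted p under 0.05, 2 were higher in Cha and 7 in Gad. LManII, a lysosomal mannosidase, had 9.43, 8.43, 8.73, 7.81 and 9.43 in Cha, against 11.15, 11.56, 12.08, 10.92 and 11.04 in Gad. The groups were far apart (difference -2.58, 6.0-fold higher in Gad, limma adjusted p = 0.00065). Npc2a, which carries sterols in the lysosome, differed by -1.60 (adjusted p = 0.00225). The cysteine protease genes CtsB and CtsK1 differed by -0.82 and -0.70 (adjusted p = 0.00408 and 0.00606). The pump and lysosome lists were not tested against each other.

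Of 4 measured genes of pump assembly and regulation, 1 passed, and of 5 vesicular transmitter transporters also 1, where 18.5% of all genes did, so both counts are near the background. SkpA, whose yeast counterpart takes part in assembling the pump, was higher in Cha (11.98 ± 0.13 against 11.43 ± 0.24 in Gad, SD, n = 5 each; difference 0.55, limma adjusted p = 0.0125). In the assembly list, 1 gene was higher in Cha and 1 in Gad at an unadjusted limma p under 0.05. Of 5 genes of the Rag and Ragulator complexes, which dock TORC1 to the pump on the lysosome, 0 passed and 1 had an unadjusted p under 0.05 in limma. Lamtor3 differed by 0.60 (adjusted p = 0.0552) and RagC-D by 0.17 (adjusted p = 0.251). Of 3 chloride counter-ion genes, 0 passed and 1 had an unadjusted p under 0.05 in limma, with ClC-b at -0.34 and ClC-a at -0.22. Among the vesicular transporters, which use the proton gradient, the gene that passed was prt, related to Vmat, which had 6.77 ± 0.21 in Cha and 7.98 ± 0.32 in Gad (SD, n = 5 each; difference -1.21, limma adjusted p = 0.00097).

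**Figure D5:**
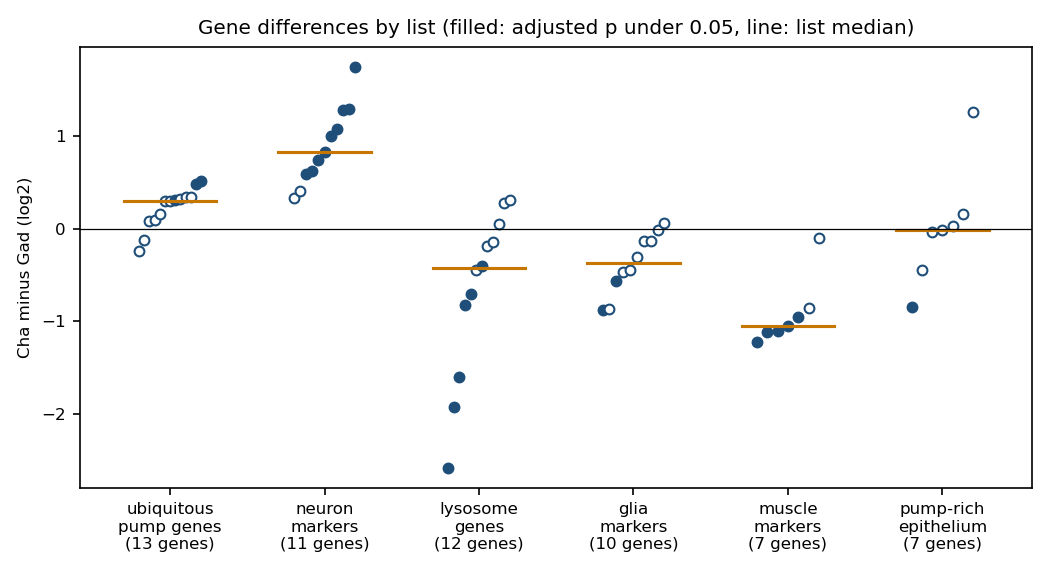
Cha minus Gad difference in log2 units (y axis) for each gene of 6 lists (x axis), filled where the adjusted p was under 0.05, with the list median as a line. The median of the ubiquitous pump genes (0.30) lies between that of the neuron markers (0.83) and 0, and the lysosome, glia and muscle lists lie mostly below 0.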

How the data were processed

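The authors deposited log2 expression values made with RMA, per the submitters' processing notes; its version is not given in the sources used here. Because RMA gives all arrays 1 distribution, it removes any shift common to most genes, and its background step compresses dim genes. The 10 arrays had medians of 5.70 to 5.78. Precision is limited by the number of arrays. The p-values take in only sample-to-sample spread, and that may be technical. After removal of 183 control probe sets, 18769 were left, of which 13647 had 1 gene symbol, 402 several and 4720 none. Differences were fitted with limma 3.58.1 (R 4.3.3, lmFit and eBayes, 2-sided, no covariates), checked on simulated data, and adjusted over the 11982 genes. Paralogue pairs were compared with exact permutation tests. Members and lists were chosen with earlier results of these data known. All members were named, with the reporter genes and, per list, up to 4 genes past the threshold or 2 where none passed. Alternatives covered normalization, dim probe sets, the prior, array weights, probe set choice, a replicate block and left-out arrays. The background of equally bright genes and ATP6AP2 were added after the data were seen.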

Additional observations from a re-analysis of the deposited data

Results flagged for a closer look

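In each group of 5 arrays, a value far from the other 4 was sought for the 31 members and ATP6AP2. Of 64 groups tested, 3 held such a value, where chance gives about 1 in 20 groups, or 3.2. Vha36-3 was far lower on Gad replicate 1 (4.84) than on the other Gad arrays (5.42 to 5.52). Vha68-3 was highest on Cha replicate 2 (3.85, against 3.72 to 3.73 on the others), but it was dim on all arrays. VhaM9.7-d was highest on Cha replicate 4 (5.43, against 4.84 to 4.99 on the others).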

How the results depend on the processing

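No member changed direction as a called gene under the 19 alternatives. Of 580 member values, 531 kept their side of the threshold, 39 lost a call and 10 gained one. Some uncalled members with differences near 0 did change sign. Among them were VhaM9.7-b (0.09, but -0.04 without Cha replicate 3) and Vha100-5 (0.02, but -0.23 without Cha replicate 4). The count of 4 members higher in Cha and 1 in Gad became 0 and 0 with the replicate number as a block and 0 and 0 without Cha replicate 2 and Gad replicate 5 (1 shared letter code), and 2 were higher in Gad with array weights. At an unadjusted limma p under 0.05, the block gave 6 higher in Cha and 2 in Gad, and the smaller set of arrays 5 and 1. The share of all genes at that p was not counted. Calls over all genes fell to 352 and 761 with the block and to 382 and 673 without those 2 arrays, against 984 and 1228, and the ubiquitous count of 3 became 0 and 0. The smaller set has fewer arrays; otherwise the cause was not tested. Same-numbered arrays of both groups did not deviate together (correlations -0.368 to 0.034). That cannot decide whether the numbers pair the samples. Without 1 array each, members higher in Cha numbered 1 to 5 and in Gad 0 to 2, ubiquitous genes higher in Cha 1 to 4, and all genes higher in Cha 525 to 1252 (525 to 627 without Gad2, Gad3 or Gad5). Under all 19, 10 or 11 of 13 ubiquitous genes had the higher mean in Cha, and their median difference stayed between 0.24 and 0.33. The replicate block, the trended prior and the removal of dim probe sets cannot change these means, so they do not test this. The Rag and Ragulator count higher in Cha was 1 with a second quantile normalization and 0 to 1 without 1 array (1 without Cha1 or Cha3). Without 1 array, counts ranged from 1 to 2 for assembly, 0 to 1 for transporters and 0 to 2 for lysosome genes higher in Cha. For chloride counter-ion genes higher in Gad they ranged from 0 to 1. The higher values all came without Cha4, for the chloride genes also without Cha5. The GAPDH gap difference ranged from -0.61 to -0.39 and passed without Cha1 or Cha2 (exact permutation, adjusted p = 0.0476). For the paralogue pairs, the exact test allows a single pair no adjusted p under 0.0714, so its failure to pass under the alternatives says nothing about stability; with 5 pairs, a paired test cannot give less than 0.0625.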
